A study of Mus musculus with 8 samples.

Results

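The comparison described here is that between 2 ways of keeping mouse astrocytes, adjusted for time in culture. It set all 4 libraries of astrocytes in MGS against all 4 libraries of astrocytes in a conventional culture (CV). These 8 libraries are all 8 of the study. MGS is not spelled out in the labels, whose short sample names use the word soft for MGS and hard for CV. RNA was taken on day 5 and on day 32, with 2 libraries of each culture per day, and the labels give no strain, age, genotype or drug for any group. RNA was sequenced, and the level of each gene was taken from the authors' table of TPM, a length-adjusted abundance that sums to a fixed total in each library.

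Astrocytes are the glial cells that take up glutamate and potassium around synapses, line blood vessels with their endfeet and couple to one another through gap junctions made of connexins. Astrocytes kept on hard plastic spread out, build stress fibres of contractile actin and divide. Stress fibres and nuclear entry of the coactivators YAP and TAZ are classic responses of cells to a stiff or open substrate. YAP and TAZ act through the TEAD transcription factors, and the actin-sensing coactivators of the MRTF family act through the serum response factor, SRF.

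Of the 23401 genes in the table, 14866 reached 1 TPM in at least 2 libraries and were tested. TPM was rescaled between libraries by median-of-ratios size factors, and an additive model of culture and day was fitted to log2(scaled TPM + 1) in limma. A difference is MGS minus CV on that log2 scale, with its standard error (SE) from the fit; the added 1 understates the change of low genes. Calls were made at a Benjamini-Hochberg adjusted p under 0.05. A called gene counts here as stable when it met 4 conditions. The difference had 1 sign at both days and reached 1 log2 unit at each day. The values of both days lay within 0.5 log2 units of each other, and the MGS and CV libraries did not overlap at either day. This rule uses the values themselves, so what it selects is a description. The labels do not say whether the 2 libraries of a group came from separate cultures, so the p-values reflect the spread among the libraries alone, and that spread may be technical.

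The CV libraries were the shallower ones, with 2.15 to 2.99 gigabases of aligned sequence against 3.90 to 4.69 for MGS. They were also the noisier ones. Between the 2 libraries of a group, log2 levels differed with an SD of 0.318 and 0.481 in CV at day 5 and day 32, and 0.198 and 0.186 in MGS. The part of this depth gap in the results was not tested. The labelled cell type was checked against 10 defining astrocyte markers (Gfap, Aqp4, Slc1a3, Slc1a2, Aldh1l1, S100b, Gja1, Sox9, Aldoc and Glul). All 10 were present in every library, and the lowest of these levels were 7.05 scaled TPM of Slc1a2 and 7.75 of S100b, both in CV at day 32. Other astrocyte genes were near or at 0 in the CV libraries of day 32, at 0.119 and 0.0746 scaled TPM of Slc6a11, 0 and 0.128 of Cldn10, 0.249 and 0 of Slc7a10 and 0.914 and 0.357 of Gjb6.

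Culture changed 5013 of the 14866 genes (33.7%), 2776 of them higher in MGS (18.7%) and 2237 lower (15%). All 5013 had 1 sign at both days, which the additive model all but requires of a call. In 4969 of them the libraries of the cultures did not overlap at either day. Over all genes tested, 22.3% did not overlap at either day with MGS higher and 19.4% with MGS lower. At least 2-fold differences were found for 1628 higher and 747 lower genes. In bulk RNA, fewer cells of a type and less RNA per cell cannot be told apart. The split depends on how libraries are put on 1 scale. Higher genes were 55.4% of the calls here, 69.4% with TPM as deposited, 43.6% after quantile normalization and 39.8% once length and GC content of the transcripts were regressed out (the length and GC correction). The median difference of all genes was 0.003 here, 0.20 with TPM as deposited and -0.13 under the length and GC correction.

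The stable rule kept 608 genes, 405 higher in MGS and 203 lower, or 4.09% of those tested (2.72% higher and 1.37% lower). Their median difference was 1.75 for the higher genes, with a range from 1.03 to 6.47, and -1.42 for the lower genes, with a range from -4.73 to -1.02. A difference of at least 4-fold was found for 156 of the higher and 28 of the lower genes. The stable higher genes were mostly low in CV, with a median level of 2.26 scaled TPM there and 13.7 in MGS. The stable lower genes had medians of 48.8 scaled TPM in CV and 13.8 in MGS, and 17 of them had a mean under 1 scaled TPM in MGS at both days. In 565 of the 608 genes every MGS library lay on 1 side of every CV library, across days. The stable rule itself favours this, and the share over all genes tested was not computed. Among the stable higher genes, 107 had a mean under 1 scaled TPM in CV at both days and 10 were listed at 0 in all 4 CV libraries.

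**Figure D1:**
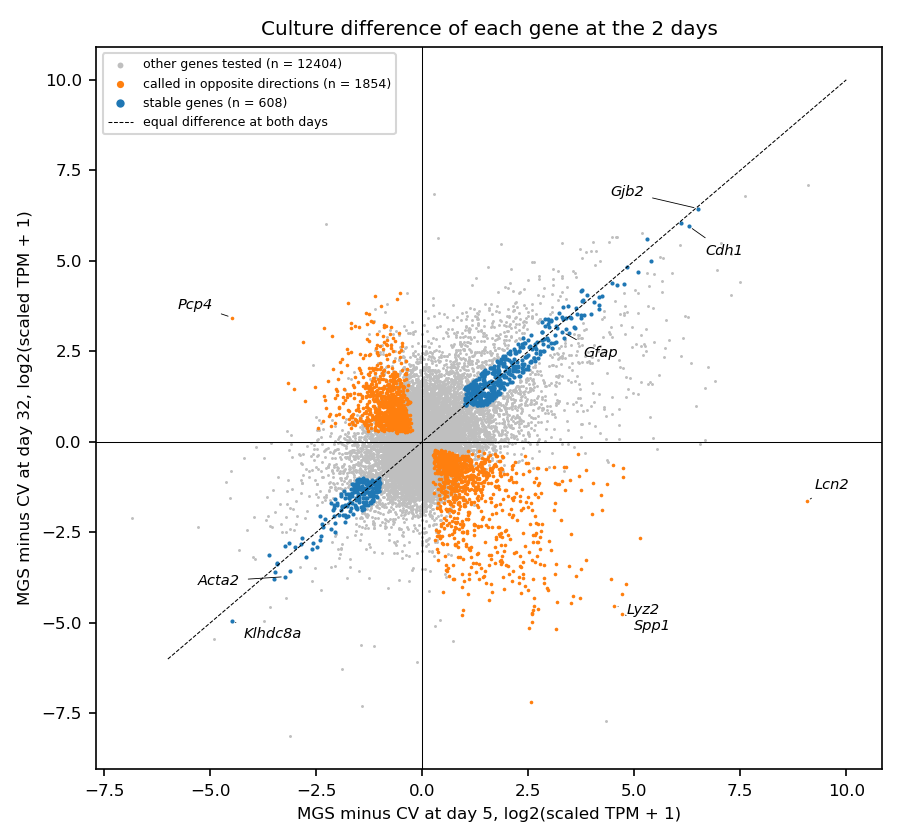
Culture difference of each gene at day 5 (x axis) against that at day 32 (y axis), both as MGS minus CV in log2(scaled TPM + 1). Blue points are the 608 stable genes, which lie along the diagonal; orange points are the 1854 genes called at both days with opposite signs, and grey points are the other genes tested.

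A stable difference was the less common kind. The test of the culture by day interaction called 8966 genes (60.3%), and 2458 of the 5013 genes called for culture were among them. At day 5 alone 7825 genes (52.6%) differed between the cultures, and at day 32 alone 10398 (69.9%). Of the 5704 genes called at both days, 2267 were higher in MGS at both, 1583 were lower at both and 1854 (12.5%) had opposite signs. None of those 1854 was called in the additive model of limma, and 0 reached an unadjusted p under 0.05 there. The additive model takes a difference between days as residual spread, so its calls favour genes with similar differences. A gene with opposite signs can hardly be called by it, so the absence of the 1854 from its calls follows from the model. Of 1418 called genes with at least 1 log2 unit at each day and no overlap, 608 were stable, 401 differed more at day 32 and 409 differed more at day 5. Across the 14866 genes the differences of day 5 and day 32 correlated with r = 0.319; genes are not independent replicates, and the libraries of a day share their depth.

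The connexin gene Gjb2 and its neighbour Gjb6 were among the largest stable rises. Both encode gap junction proteins of astrocytes and of epithelia. The order of the largest rises depends on the pseudocount: with 0.1 in place of 1 the difference was 7.06 for Gjb2, 7.73 for Cdh1 and 8.58 for Slc6a20a. Gjb2 (chromosome 14, 57098602 to 57104702, minus strand, mm10) stood at 301 and 311 scaled TPM in the 2 MGS libraries of day 5 and at 194 in both of day 32. In CV it stood at 2.24 and 2.52 at day 5 and at 1.29 and 1.19 at day 32. The lowest MGS library lay far above the highest CV library, and the difference was 6.47 (SE 0.09, limma adjusted p = 2.74e-07), with 6.50 at day 5 and 6.44 at day 32.

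Gjb6 lies 18598 bases away (57123301 to 57133611, minus strand). It stood at 108 and 119 scaled TPM in MGS at day 5 and 105 in both libraries of day 32, against 1.01 and 0.364 in CV at day 5 and 0.914 and 0.357 at day 32. The difference was 6.07 (SE 0.17), nearly equal at both days (6.11 and 6.04). Gja1, the main astrocyte connexin, was also called higher, by 3.04 (SE 0.24), but it was not stable: its difference was 2.49 at day 5 and 3.60 at day 32.

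Cdh1, which encodes the adhesion protein E-cadherin of epithelial junctions (chromosome 8, 106603368 to 106670246, plus strand), ranked second. It stood at 102 and 108 scaled TPM in MGS at day 5 and 83.5 and 82.1 at day 32, while no CV library exceeded 0.509. The difference was 6.12 (SE 0.14, adjusted p = 3.25e-06). The keratins Krt8 and Krt18, which pair in the filaments of simple epithelia, were stable as well, with differences of 2.05 and 2.28, and the level of Krt18 in MGS was 26.4 and 28.9 scaled TPM at day 5 and 6.48 and 6.63 at day 32. Of 6 epithelial and keratin genes tested, 4 were called higher and Sfn, an epithelial regulator of the cell cycle, was called lower (-1.49). The remaining tested gene, the keratin Krt19, was called at both days with opposite signs. It stood at 12.5 and 11.7 scaled TPM in MGS and 7.76 and 6.88 in CV at day 5. At day 32 it stood at 4.90 and 4.59 in MGS and 16.1 and 9.56 in CV. The untested genes of that list, among them Epcam and Krt5, did not pass the filter on low values.

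The remaining genes among the 12 largest stable rises were Slc6a20a (5.45), Ranbp3l (5.19), Ccdc153 (4.88), Serpind1 (4.82), Enpep (4.56), Col6a3 (4.46), Crispld1 (4.42), Gbgt1 (4.13) and Ltbp4 (4.08). Slc6a20a is an amino acid transporter of meninges and kidney. It stood at 35.7 to 51.3 scaled TPM in MGS and was listed at 0 in 3 of the 4 CV libraries. Serpind1 encodes the thrombin inhibitor heparin cofactor II. It held nearly the same level in all 4 MGS libraries, from 29.9 to 31.7 scaled TPM, and at most 0.251 in CV. Enpep is a membrane aminopeptidase that cleaves angiotensin, and Ltbp4 binds latent TGF-beta in the matrix. Ltbp4 had a measurable level in every CV library, 3.74 to 4.56 scaled TPM against 70.1 to 94.6 in MGS.

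**Figure D2:**
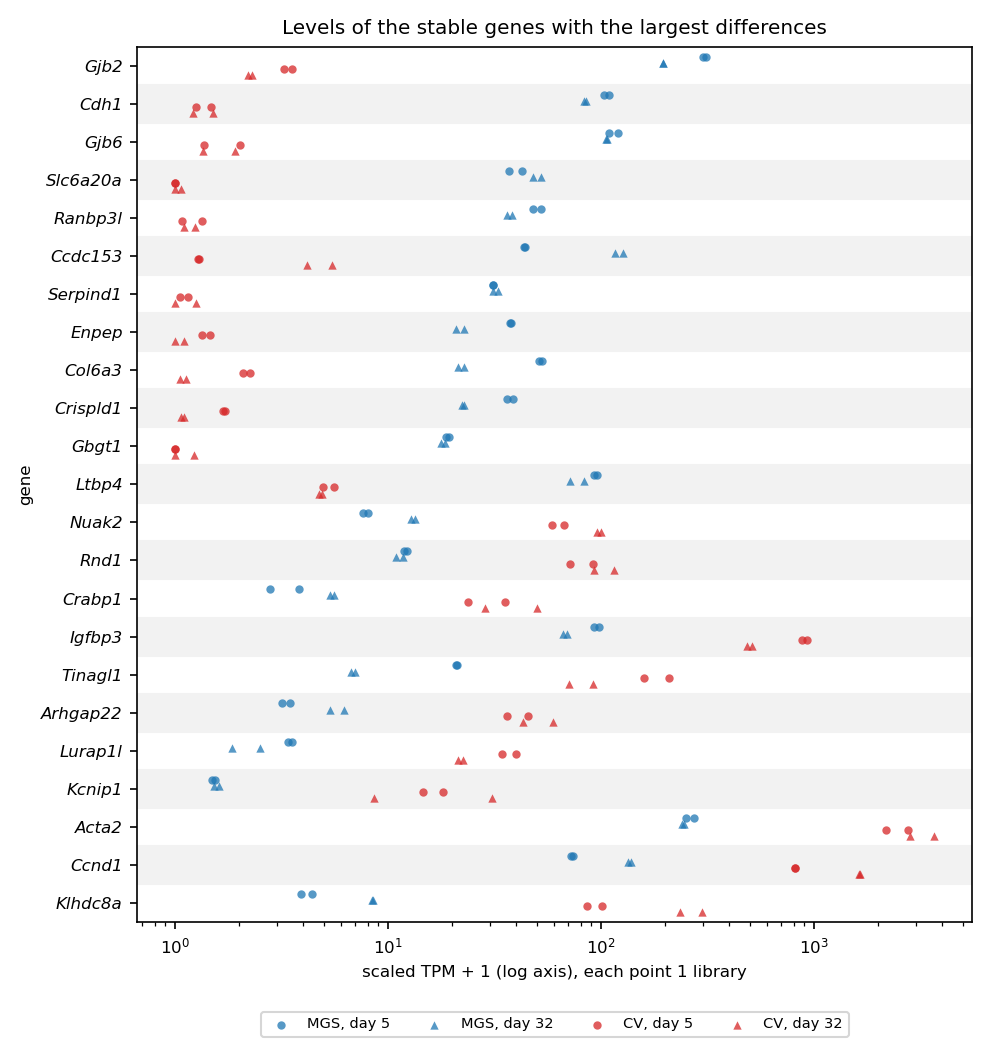
Scaled TPM of the 12 stable genes with the largest rise and 11 of the 12 with the largest fall in MGS, 1 point per library, on a log axis with culture and day marked. In each gene the 4 MGS points stand apart from the 4 CV points, as for Gjb2, at 194 to 311 in MGS and 1.19 to 2.52 in CV.

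The astrocyte genes as a group were mostly higher in MGS. Of 36 genes of astrocyte homeostasis, 21 were called higher, 2 lower (Aldh1l1 and Nfib) and 13 were not called, with a median difference of 1.05 against 0.003 for all genes tested. The median of this list was above 0 in each of the 4 other scalings. Only 4 of the 21 were stable: Gjb6, Cldn10, Ttyh1 and Slc7a10. The interaction with day was called in 25 of the 36 genes, and in 60.3% of all genes tested.

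Gfap, the intermediate filament protein that marks astrocytes (chromosome 11, 102887336 to 102897200, minus strand), was stable at a high level. It stood at 14689 and 14645 scaled TPM in MGS at day 5 and at 7588 and 7578 at day 32. In CV it stood at 1631 and 1357 at day 5 and at 981 and 867 at day 32. The level in both cultures was lower at day 32, while the difference between them was 3.30 at day 5 and 3.04 at day 32 (3.17 in the additive model, SE 0.27, adjusted p = 0.000176). Of 13 genes of astrocyte reactivity, limma called 5 higher and 0 lower (7 and 0 at an unadjusted p under 0.05). Gfap was the stable one. Cp, Hspb1, Lcn2 and Timp1, 4 of the 13, were called at both days with opposite signs (12.5% of all genes tested). The list's median was 1.56 at day 5 and 0.01 at day 32. The interaction was called for 11 of the 13 (60.3% of all genes tested). With TPM as deposited 7 were called higher and 1 lower, and under the length and GC correction 5 and 2.

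Nes and Vim, which encode other intermediate filament proteins of astrocytes, were not higher in MGS. Nes, the filament protein nestin of progenitors and of dividing astrocytes, stood at 113 to 212 scaled TPM in MGS and at 389 to 586 in CV, a stable fall by 1.61 (SE 0.14). Vim, which encodes vimentin, stood at 4957 to 6822 scaled TPM in MGS and 9769 to 12584 in CV. The libraries did not overlap, but the difference of -0.94 (SE 0.40) was not called in the additive model (adjusted p = 0.118). It was called in 5 of 22 alternatives, with adjusted p from 0.00332 to 0.402 over all of them. Pax6, a transcription factor of neural progenitors, was stable and lower (-1.34), and it lay between 22 and 28.3 scaled TPM in MGS and between 57.6 and 77 in CV.

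The glutamate transporters and the water channel of astrocyte endfeet differed by less than the stable rule asks at 1 or both days. Slc1a2, the main glutamate transporter of astrocytes, was called higher by 1.90 (SE 0.39), with 0.89 at day 5 and 2.90 at day 32. Slc1a3, the second glutamate transporter, was called with 0.74 (SE 0.19), and Glul, glutamine synthetase, with 0.49 (SE 0.12). Aqp4, the water channel, showed 0.18 at day 5 and 2.48 at day 32, and its additive difference of 1.33 was not called (adjusted p = 0.067). S100b, a calcium-binding protein of glia, rose by 2.41 (SE 0.38). Aldh1l1, a folate enzyme used as an astrocyte marker, was lower (-0.87, SE 0.18). The call of Slc1a3 was lost with TPM as deposited, and without CV replicate 1 of day 5, either MGS library of day 32 or CV replicate 2 of day 32 (highest adjusted p of its alternatives 0.0772). The call of Glul was lost without either MGS library of day 5 or MGS replicate 1 of day 32 (highest adjusted p 0.106).

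Contractile actin genes that the additive model called were all lower in MGS. Of 31 genes of contractile actin and SRF targets, 20 were called lower and 0 higher (0 at an unadjusted p under 0.05). The other 11 were not called. Among the 11 were Actg2, Fhl2 and Mkl2, called at both days with opposite signs, which that model can hardly call. They are 3 of the 31, against 12.5% of all genes tested. The interaction with day was called for 21 of the 31 (60.3% of all genes tested). The median difference was -0.94, and it stayed below 0 in each of the 4 other scalings, where 14 to 25 genes were called lower. The called genes included the cytoplasmic actins Actb and Actg1, the myosin chains Myl9 and Myh9, the tropomyosins Tpm1, Tpm3 and Tpm4 and the actin crosslinkers Actn1, Actn4 and Flna. Acta2, Tagln and Cald1 were stable.

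Acta2, the smooth muscle actin of stress fibres (chromosome 19, 34240336 to 34255373, minus strand), stood at 271 and 248 scaled TPM in MGS at day 5 and at 245 and 238 at day 32. In CV it stood at 2741 and 2168 at day 5 and at 3653 and 2809 at day 32. All 4 MGS values lay within a narrow band far below the lowest CV value, and the difference was -3.48 (SE 0.19, adjusted p = 2.93e-05). Tagln, the actin-binding protein transgelin, stood at 486 to 594 scaled TPM in MGS and 2723 to 5734 in CV (-2.78, SE 0.23). Cald1, the actin and myosin regulator caldesmon, showed -1.58 (SE 0.15). Cnn1, calponin, fell too but was not stable, with -3.58 at day 5 and -4.56 at day 32.

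Genes often used as readouts of YAP and TAZ did not move as 1 group. Of 20 such genes, 7 were called lower, 3 higher and 10 were not called, with a median of -0.30. Under the length and GC correction 11 were lower and 2 higher, with a median of -0.70, and with TPM as deposited 5 were lower and 2 higher, with a median of -0.09. Ctgf, a matricellular growth factor, stood at 143 to 195 scaled TPM in MGS and at 490 to 853 in CV, a stable fall by 1.94 (SE 0.12). Cyr61, of the same family, was called lower (-0.90, SE 0.18), but not after quantile normalization (highest adjusted p of its alternatives 0.0821). F3, tissue factor, fell by 1.49 and Ankrd1, a muscle-type ankyrin repeat protein, by 1.47. The level of Ankrd1 was low in both cultures, at 1.38 to 2.14 scaled TPM there and at most 0.0379 in MGS. Nt5e, the enzyme that makes extracellular adenosine, and Dock5, an activator of Rac, were stable and higher, by 2.41 and 1.43.

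The promoters of these genes show where letters of the TEAD motif lie. The sequences are the 250 bases before the RefSeq start in build GRCm38.p6, 5′ to 3′ on the gene's strand, with CATTCC, or its reverse complement GGAATG, in capitals. They are shown for Acta2 and Ankrd1, which were named by rule, and for Ajuba, a LIM protein of the same list that was chosen after its values were seen. Ajuba stood at 33.5 to 43.6 scaled TPM in MGS and 85.9 to 103 in CV, a stable difference of -1.26 (SE 0.12).
Acta2 (chr19:34255374-34255623, minus strand): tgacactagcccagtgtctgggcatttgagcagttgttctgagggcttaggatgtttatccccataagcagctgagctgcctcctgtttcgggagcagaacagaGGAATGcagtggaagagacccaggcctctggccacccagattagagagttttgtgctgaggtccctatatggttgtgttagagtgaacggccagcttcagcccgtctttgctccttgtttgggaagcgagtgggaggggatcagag
Ankrd1 (chr19:36119845-36120094, minus strand): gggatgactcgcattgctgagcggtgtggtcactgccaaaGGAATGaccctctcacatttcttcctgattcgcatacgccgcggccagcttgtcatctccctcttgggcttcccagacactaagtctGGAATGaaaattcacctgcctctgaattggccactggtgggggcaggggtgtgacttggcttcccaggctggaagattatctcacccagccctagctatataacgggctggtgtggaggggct
Ajuba (chr14:54577662-54577911, minus strand): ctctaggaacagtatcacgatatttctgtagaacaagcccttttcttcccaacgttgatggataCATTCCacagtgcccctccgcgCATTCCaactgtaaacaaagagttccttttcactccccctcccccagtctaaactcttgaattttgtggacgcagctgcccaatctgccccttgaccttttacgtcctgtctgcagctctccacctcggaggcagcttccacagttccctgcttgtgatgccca
Counted from the start, Acta2 had its match at -146, Ankrd1 had matches at -210 and -123, and Ajuba at -186 and -164. The search covered 300 bases, 250 before and 50 after the start, on both strands, in the 9269 tested genes that had exactly 1 RefSeq promoter entry. CATTCC was found in 11.9% of all of these promoters, in 12.2% of the stable higher genes (28 of 229) and in 18.8% of the stable lower genes (22 of 117). It was found in 8 of 12 promoters of the YAP and TAZ list (66.7%) and in 9 of 22 of the contractile list (40.9%), both lists of known targets. The CArG box, a motif of SRF, was searched only in its strict form CCWWWWWWGG, with A or T at each W. It was found in 1.27% of all promoters, in 2.56% of the stable lower genes (3 of 117) and in 22.7% of the contractile list (5 of 22). Forms with a changed letter were not searched or marked, so a promoter without this match, such as that of Acta2, may still hold letters that SRF binds. A match describes letters only and no binding was measured.

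The largest stable fall was that of Klhdc8a, a kelch-domain gene (chromosome 1, 132298626 to 132307357, plus strand). It stood at 3.39 and 2.88 scaled TPM in MGS at day 5 and at 7.43 and 7.52 at day 32, against 100 and 85.1 in CV at day 5 and 295 and 234 at day 32. The difference was -4.73 (SE 0.15, adjusted p = 3.51e-06), although the level was higher at day 32 in both cultures. Other large falls were those of Kcnip1 (-3.40), Lurap1l (-3.38), Arhgap22 (-3.37), Tinagl1 (-3.34), Igfbp3 (-3.06), Crabp1 (-2.97), Rnd1 (-2.97) and Nuak2 (-2.95).

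Several of these genes act on the cytoskeleton or on growth factors. Rnd1 is a small GTPase that acts on actin, and Arhgap22 a GTPase-activating protein for Rac. Nuak2 is a kinase of the AMPK family that acts on actomyosin. Igfbp3, which binds insulin-like growth factors, stood at 64.8 to 96.8 scaled TPM in MGS and 484 to 928 in CV. Kcnip1, a subunit that regulates potassium channels, rests on noisier values, since its CV libraries of day 32 stood at 7.55 and 29.7 scaled TPM and its SE was 0.37.

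Cell cycle genes fell nearly as a whole. Of 34 genes, 32 were called lower and 0 higher (0 at an unadjusted p under 0.05), with a median of -1.09. With TPM as deposited 22 were called lower and 0 higher. Stable falls were found for 11 genes, which span the phases of the cycle: the cyclins Ccnd1 and Ccna2, the replication genes Cdc6, Mcm3, Mcm5, Mcm7 and Pcna, and the mitotic genes Cdk1, Aurka, Plk1 and Kif20a. With TPM as deposited only 1 of the list was stable.

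Ccnd1, the D-type cyclin that growth factor and adhesion signals induce (chromosome 7, 144929931 to 144939925, minus strand), changed most. It stood at 72.8 and 71 scaled TPM in MGS at day 5 and at 132 and 138 at day 32, and in CV at 809 and 813 at day 5 and at 1620 and 1644 at day 32. The 2 libraries of each group were close, the level was higher at day 32 in both cultures, and the difference was -3.53 (SE 0.10, adjusted p = 3.25e-06). Cdk1, the mitotic kinase, went from 56.5 and 55.4 scaled TPM in MGS at day 5 to 26.2 and 23.8 at day 32, and from 151 and 147 to 84.7 and 65.9 in CV. Its difference was -1.47 (SE 0.11). Mki67, the proliferation marker, was called lower (-0.91, SE 0.23), with -1.43 at day 5 and -0.39 at day 32. That call was lost with TPM as deposited and without either MGS library or CV replicate 1 of day 5 (highest adjusted p of its alternatives 0.227).

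Targets of the tumour suppressor p53 fell as well. Of 21 genes, 13 were called lower and 0 higher (0 at an unadjusted p under 0.05), with a median of -1.18; with TPM as deposited 12 were lower and 1 was higher. Cdkn1a, the inhibitor of cyclin-dependent kinases, stood at 129 scaled TPM in both MGS libraries of day 5 and at 156 and 163 at day 32, against 503 and 455 in CV at day 5 and 584 and 535 at day 32. This inhibitor of the cycle fell by 1.84 (SE 0.10), in the same direction as the cyclins. Mdm2, the ubiquitin ligase of p53, fell by 1.31 and Aen, a nuclease, by 1.68. The pro-apoptotic gene Pmaip1 and the stress cytokine Gdf15 fell by 2.95 and 3.65 and were not stable.

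**Figure D3:**
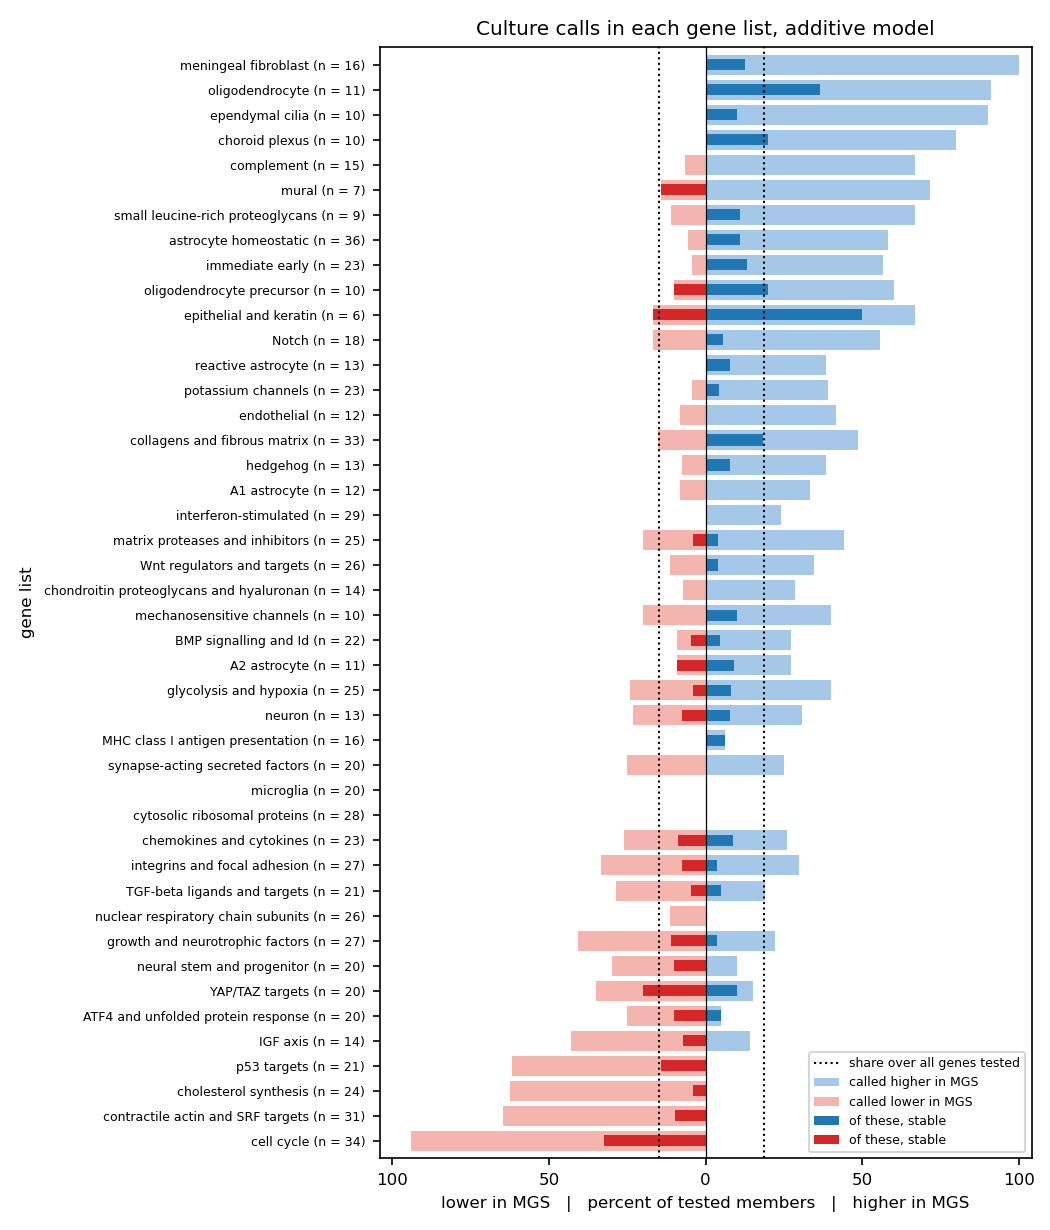
Percent of the tested members of each gene list that were called higher or lower in MGS, with the stable share marked; dotted lines give the share of all 14866 genes tested (18.7% higher and 15% lower). In the additive model, cell cycle and contractile lists were called only lower, and meningeal fibroblast and ependymal markers only higher.

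Matrix genes were called in both directions. Of 33 collagens and fibrous matrix genes, 16 were called higher and 5 lower, and 6 were stable, each of them higher: Col6a3, Fbn2, Col23a1, Lox, Eln and Col9a3. Col6a3, a chain of collagen VI, stood at 49.9 and 51.7 scaled TPM in MGS at day 5 and 20.2 and 21.7 at day 32, against 1.07 and 1.25 in CV at day 5 and 0.123 and 0.0489 at day 32. Both cultures had less of it at day 32, and the difference stayed near 4.46 (4.58 and 4.34). Fbn2, a fibrillin of elastic microfibrils, rose by 3.63, Eln, elastin, by 1.61 and Lox, the enzyme that crosslinks both collagen and elastin, by 2.08. Postn, Fbln2, Fbln5, Col5a2 and Col8a1 were the 5 that fell. Under the length and GC correction 13 of the list were higher and 7 lower. Ogn, a small leucine-rich proteoglycan, rose by 1.82 and was the stable one of 9 tested.

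The receptors for matrix changed in both directions. Of 27 integrin and focal adhesion genes, 8 were called higher and 9 lower (3 and 14 under the length and GC correction), and 3 were stable. Itga3 and Itgb1, the subunits that form a laminin receptor, were both lower. Itga3 stood at 20.5 to 35.3 scaled TPM in MGS and 147 to 257 in CV (-2.83, SE 0.09), and Itgb1 at 265 to 312 in MGS and 666 to 878 in CV (-1.33, SE 0.15). Itgb4, whose product joins laminin to keratin filaments in hemidesmosomes, was higher, at 11.4 to 17.1 scaled TPM in MGS and 0.855 to 2.75 in CV (2.52, SE 0.14). Among 10 mechanosensitive channels, 4 were higher and 2 lower. Piezo2 was stable, at 7.71 to 11.5 scaled TPM in MGS and 0.33 to 1.01 in CV (2.67, SE 0.11), while Piezo1 fell by 1.00 (SE 0.10), with -0.96 at day 5 and -1.04 at day 32.

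Signalling genes with a stable difference lay in both directions. Of 27 growth and neurotrophic factors, 6 were called higher and 11 lower. Ptn, the heparin-binding growth factor pleiotrophin, stood at 679 to 1514 scaled TPM in MGS and 178 to 556 in CV (1.64, SE 0.14). Pdgfb, a ligand of platelet-derived growth factor receptors, was lower at both days (-1.99), as were Ereg, an EGF-family ligand (-1.38), and Bdnf, a neurotrophin (-1.07). Bmp7, a bone morphogenetic protein, rose by 3.59 and Bambi, a decoy receptor of that pathway, fell by 1.16. Of 22 genes of that pathway 6 were higher and 2 lower. Stable members of other pathways included the Notch ligand Dll3 (1.39), from a list where 10 genes were called higher and 3 lower, and the Wnt antagonist Sfrp5 (1.74 at day 5 and 1.26 at day 32), from a list where 9 were called higher and 3 lower.

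Immediate early genes were mostly higher. Of 23, 13 were called higher and 1 lower (Fosl1, -2.44), with a median of 1.34. Nr4a1, an orphan nuclear receptor, stood at 478 and 416 scaled TPM in MGS at day 5 and 246 and 262 at day 32, against 34.7 and 29.4 in CV at day 5 and 17.7 and 14.8 at day 32. The level was lower at day 32 in both cultures, and the difference was 3.83 (SE 0.11). Its relative Nr4a2 (3.76) and the transcription factor Klf4 (2.14) were stable too. Another relative, Nr4a3, was called at both days with opposite signs, as were Arc, Atf3, Klf2 and Zfp36. They are 5 of the 23, against 12.5% of all genes tested. The interaction was called for 18 of the 23 (60.3% of all genes tested). Fos showed 4.01 at day 5 and 1.63 at day 32, and so was called but not stable.

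Stable genes of the metabolic and stress lists lay in both directions. Of 24 genes of cholesterol synthesis, 15 were called lower and 0 higher (0 at an unadjusted p under 0.05), with a median of -1.12, but with TPM as deposited only 5 were called lower. Mvk, mevalonate kinase, was the stable one (-1.47); the list's median was -2.04 at day 5 and -0.39 at day 32. Slc7a11, the cystine and glutamate antiporter, was stable and higher (2.73), while Asns, asparagine synthetase (-1.06), and Mthfd2, a mitochondrial folate enzyme (-1.68), from the same ATF4 list were stable and lower. Hk2, a hexokinase, was stable and lower (-1.25), and Pdk1, which shuts pyruvate dehydrogenase, and Ndrg1, a hypoxia-induced gene, were stable and higher (1.77 and 1.19). Of 28 cytosolic ribosomal proteins, limma called 0 in either direction in the additive model, and 0 reached an unadjusted p under 0.05, while under the length and GC correction 6 were called lower. The interaction with day was called for 27 of the 28, and the list's median difference was 0.49 at day 5 and -1.28 at day 32.

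Chemokines and cytokines went both ways. Cx3cl1, a membrane-bound chemokine whose receptor marks microglia, stood at 33.6 to 36.3 scaled TPM in MGS and 135 to 149 in CV (-1.99, SE 0.08), and the values were nearly the same at day 5 and day 32. Csf1, the growth factor that microglia need, stood at 108 to 120 scaled TPM in MGS and 289 to 336 in CV (-1.49, SE 0.10). Ccl7, a monocyte chemokine, was higher at both days (2.25 and 1.95), with more of it at day 32 in both cultures. Of 15 complement genes, 10 were called higher and 1 lower, and none met the stable rule. C3, the central component, rose by 3.72 (SE 0.71), with 5.58 at day 5 and 1.85 at day 32. Of 29 interferon-stimulated genes, limma called 7 higher and 0 lower (10 and 0 at an unadjusted p under 0.05), none met the stable rule, and 11 had opposite signs at the 2 days. With TPM as deposited 13 were called higher and 3 were stable.

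Markers of other brain cells were higher in MGS at both days for most lists, and their part in the results above was not tested. All 16 markers of meningeal fibroblasts were called higher, with a median of 4.04. Their summed level was 12663 to 14584 scaled TPM in MGS and 321 to 367 in CV at day 5, and 10800 to 10876 in MGS and 476 to 506 in CV at day 32. Slc6a20a and Ogn were the stable ones. This list includes the collagens Col1a1 and Col3a1, which were also among the matrix genes that rose. The decorin gene Dcn stood at 3.28 to 22.8 scaled TPM in the CV libraries, and Slc22a6 was at 0 in all of them.

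Of 11 oligodendrocyte markers tested, 10 were called higher, and the myelin gene Mog (1.51) and the lipid enzyme Ugt8a (2.57) were among the stable ones. Their summed level, over all 13 listed, was 1647 to 1697 scaled TPM in MGS and 93.5 to 112 in CV at day 5, and 866 to 876 in MGS and 175 to 203 in CV at day 32. Most of the MGS sum was Cldn11, at 998 and 1022 scaled TPM at day 5 and 458 and 473 at day 32. Most of the CV sum was Cnp, at 102 and 83.7 at day 5 and 181 and 155 at day 32. The sums therefore say little about the levels of the other markers. Mog, Opalin and Cldn14 were listed at 0 in all CV libraries. Of 10 precursor markers, 6 were higher and Olig1 was lower (-1.35); Gpr17 was stable at 9.93 to 13 scaled TPM in MGS and was listed at 0 in 3 of 4 CV libraries. The summed level of the precursor list overlapped between the cultures at neither day but was lower in MGS at day 5, at 481 to 486 against 592 to 725. Most of the CV sum at day 5 was Olig1, at 506 and 412 scaled TPM in CV against 157 and 160 in MGS. The day 5 sum therefore does not give the direction of the other precursor markers.

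Of 10 markers of ependymal cilia, 9 were called higher, with a summed level of 740 to 758 scaled TPM in MGS and 178 to 215 in CV at day 5, and 1458 to 1494 and 392 to 569 at day 32. Foxj1, the regulator of motile cilia, was present in CV at 131 to 235 scaled TPM, and Tmem212 was listed at 0 there. Of 10 choroid plexus markers, 8 were higher, with a sum of 13655 to 18307 scaled TPM in MGS against 160 to 178 in CV at day 5, and 1672 to 1700 against 138 to 203 at day 32. Most of the MGS sum was Ttr, the thyroid hormone carrier transthyretin, at 13330 and 17945 scaled TPM in MGS at day 5. Without Ttr the list summed to 325 to 362 scaled TPM in MGS against 69.5 to 71.1 in CV at day 5, and to 206 to 211 against 68.1 to 92.2 at day 32. Of 12 endothelial markers 5 were called higher and 1 lower, and of 7 mural markers 5 were called higher and 1 lower. The endothelial median was 2.06 at day 5 and 0.26 at day 32, with the interaction called for 11 of the 12 (60.3% of all genes tested). In MGS, Cldn5 went from 25.4 and 24.9 scaled TPM at day 5 to 0.0435 and 0.0877 at day 32. Pecam1 went from 6.55 and 5.98 to 0.0561 and 0.0566. Cdh5 stayed higher in MGS at day 32, at 94.5 and 106 against 9.53 and 15.4 in CV. Neuron markers were called higher for 4 of 13 and lower for 3, with sums of 126 to 136 scaled TPM in MGS and 214 to 271 in CV. Much of the CV sum was Stmn2, at 99.3 to 202 scaled TPM in CV against 10.6 to 17 in MGS. The sum therefore does not show a direction of the list as a whole.

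Microglia markers stood apart, since 18 of 20 tested were called at both days with opposite signs, against 12.5% of all genes tested. Their summed level was 1485 to 1508 scaled TPM in MGS and 177 to 183 in CV at day 5, but 1366 to 1391 in MGS and 21890 to 27012 in CV at day 32. The sum in MGS differed little between the days, but Lyz2 was its largest part and its members moved both ways. In MGS, Csf1r stood at 8.02 in both libraries of day 5 and at 37.3 and 39.1 at day 32. Cx3cr1 went from 3.89 and 3.47 to 14.8 and 14.2. Tmem119 went from 53.4 and 49 to 13.5 and 14.3, and Trem2 from 45 and 43.6 to 20.7 and 23.6. C1qa, a chain of the starter of the complement cascade, was higher in MGS by 4.80 at day 5 and lower at day 32 (-3.92), and Lyz2, lysozyme, showed 4.52 and -4.54. Spp1, osteopontin, and Trem2, a microglial receptor, followed the same course, with 4.70 and -4.74, and 3.72 and -4.30. Sall1, also among the 18 microglia markers, ran the other way. It stood at 12.9 and 13.5 scaled TPM in MGS against 27.2 and 30 in CV at day 5. At day 32 it stood at 25.4 and 25.3 in MGS against 8.76 and 11.2 in CV. In the same reverse order, Pcp4, a calmodulin regulator, was lower in MGS at day 5 (-4.49) and higher at day 32 (3.43). Xylt1, which starts glycosaminoglycan chains, showed -2.81 and 2.76, and Irs2, an adaptor of the insulin receptor, -1.88 and 2.30. The day 5 call of Irs2 was lost without any 1 of the MGS libraries or of the day 5 CV libraries, and its day 32 call was lost without MGS replicate 2 of day 32. Megf9 (-2.12 and 2.91), Prrg4 (-2.32 and 3.14) and Leprel1 (-1.91 and 1.92) did likewise. The acute-phase gene Lcn2 had a difference of 9.07 at day 5 and -1.64 at day 32, and was not called in the additive model (adjusted p = 0.199).

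The rule's limit of 0.5 log2 units between days falls in a continuum. Just inside it lay Mrgprf (4.18 at day 5 and 3.68 at day 32) and Pax3 (-1.66 and -1.16). Just outside lay Oplah (1.20 and 1.70) and Elfn1 (-1.75 and -1.25). Of the 608 stable genes, 600 were called in each of 4 other scalings, yet only 47 met the stable rule in all 4. With TPM as deposited 560 genes were stable, 182 of them shared with the 608. Cdh1, Ranbp3l, Serpind1, Crispld1 and Rnd1 met the rule in all 4 scalings. Gjb2, Gjb6, Gfap and Ccnd1 did not meet it with TPM as deposited, where the days of Gjb2 differed by 0.60 log2 units, and Gfap and Ccnd1 did not meet it after quantile normalization either.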

How the data were processed

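RNA was sequenced from 8 libraries of mouse astrocytes, grouped and numbered by their titles. Libraries were made, per the labels' protocols, with a directional kit from RNA extracted with TRIzol. The tools named are bcl2fastq, StringTie 1.3.4d and HISAT2 2.1.0, and the builds named are mm10 and hg38, per the submitters' processing notes. Alignment settings, the annotation and the use of strand in counting are not given in the sources used here, so overlapping or antisense genes and near-identical copies are uncertain. The authors deposited TPM for 23401 genes in a table of the whole series. Its values matched the last listed row of every gene ID in the deposited library files to within 1e-05 TPM; 188 gene IDs had several rows in at least 1 library. FPKM was also deposited and served 1 alternative. The deposited coverage, a read depth per base, divided by FPKM gave the aligned bases of each library, 2.15 to 4.69 gigabases. Read counts could not be recovered, so no counting interval is given.

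TPM was divided by median-of-ratios size factors. Genes with at least 1 TPM in at least 2 libraries were fitted as log2(scaled TPM + 1) in limma 3.58.1 (R 4.3.3), by culture and day, with empirical Bayes moderation and a variance trend. A second fit of the 4 group means gave differences within each day and the interaction. Tests were two-sided and Benjamini-Hochberg adjustment covered all genes tested. The script was tested on simulated data. Gene positions are from the deposited files (mm10); promoters are RefSeq's, in GRCm38.p6, and 9269 of the 14866 genes had 1 entry.

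The stable rule, the members and the gene lists were chosen with earlier results of these data known. Genes were named by rule: the 12 largest stable rises and falls with at least 5 scaled TPM in the higher culture at both days and no model name; up to 4 stable members of each list; 6 each way of the genes with opposite signs; 17 genes in any case; and the 2 genes just inside and the 2 just outside the limit on the gap. Of the 608 stable genes 426 met the level and symbol conditions and 47 had model names. Of the genes this rule names, 1 of the largest falls and 3 members of lists are not reported here. Genes given beside the counts of a list, and Ajuba, Cnn1, Piezo1, Pmaip1, Gdf15, Fos and Fosl1, were named after their values were seen. Alternatives changed the scaling, pseudocount, filter, variance model, stable rule and replicate block, and left out each library.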

Additional observations from a re-analysis of the deposited data

Results flagged for a closer look

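The culture difference itself differed between the days, by the limma test of the interaction, for 29 of the genes named; values are the difference at day 32 minus that at day 5, on the log2 scale, and a negative value means that MGS stood relatively lower at day 32. The most negative were those of Lcn2 (-10.71), of the microglia genes Spp1 (-9.45), Lyz2 (-9.05), C1qb (-8.93), C1qa (-8.72), C1qc (-8.26) and Trem2 (-8.02), and of C3 (-3.74). The most positive were those of Pcp4 (7.92), Xylt1 (5.57), Prrg4 (5.46), Megf9 (5.03), Irs2 (4.18) and Leprel1 (3.83). Among astrocyte genes the difference was wider at day 32 for Aqp4 (2.29), Slc1a2 (2.02), S100b (1.93) and Gja1 (1.11), and the interaction of Aldh1l1 was -0.75, a deeper fall at day 32. Cyr61 also fell further at day 32 (-0.56), and Mki67 less (1.04).

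Some of these genes met the stable rule or lay just outside it, so that their differences at both days were close in size and yet distinct by the test. They were Oplah (0.50), Aen (0.49), Nes (0.48), Mdm2 (0.48), Cldn10 (0.44) and Hk2 (0.39), with positive values, and Sfrp5 (-0.48) and Mog (-0.43), with negative ones. The adjusted p-values of these 8 genes in limma lay between 0.0169 and 0.0492. In all, 35 of the 608 stable genes had an interaction that was called.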

How the results depend on the processing

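None of the 608 stable genes changed direction in any of 22 alternatives, which their selection for large differences without overlap made nearly certain. Of them, 438 were called in all 22, but only 7 met the stable rule in all 22, among them C1qtnf1, Cdh1, F3, Mgll, Pld2 and Serpind1. The 22 did not include changes to the limits of the stable rule. Of 2383 alternative values of the 109 genes named by rule, 2354 kept their direction and their side of the threshold, 19 values of 6 genes were no longer called, 10 values of uncalled genes became called and 0 changed direction; within day 32 alone, the difference of Lcn2 was -1.64. The count of genes called for culture, 5013, was 9503 with the 4 group means in place of the additive model, 7825 within day 5 and 10398 within day 32; the first of these fits has a smaller residual by construction, since it removes the interaction. The stable count, 608, was 381 with a pseudocount of 5, 315 with a gap limit of 0.25, 986 with a limit of 1 and 1268 at 1.5-fold. Leaving out each library in turn gave 3626 to 5058 called and 559 to 657 stable genes; 604 of the 608 were called, and 338 were stable, in each of these fits. TPM as deposited, quantile normalization, FPKM and the length and GC correction gave 560, 623, 508 and 652 stable genes, of which 182, 398, 452 and 280 were shared with the 608. The number of the replicate did not pair the libraries: deviations of libraries with the same number correlated with r = 0.122 at day 5 and -0.054 at day 32. With the replicate block 2716 genes were called and 604 were stable, and the calls of Aldh1l1, Slc1a2, Slc1a3, Glul, Cyr61 and Mki67 were lost. Between the genes with the shortest and the longest transcripts (the outer eighths), the median difference went from 0.28 to -0.32 at day 5 and from -0.73 to 0.83 at day 32; the cause was not tested. Depth limits the CV values most, and rises from a CV level near 0 have no dependable fold.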

Other observations

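Genes named here were chosen after their values were seen. The 47 genes that met the stable rule under all 4 other scalings, 38 higher and 9 lower in MGS, included Spag6 and Ccdc113, genes of motile cilia. Spag6, of the central pair of the axoneme, stood at 18.1 and 19.4 scaled TPM in MGS at day 5 and 74.5 and 74.1 at day 32, against 0.994 and 0.797 in CV at day 5 and 6.86 and 8.53 at day 32. Its difference was 3.25 (SE 0.13). Ccdc113, a ciliary coiled-coil protein, differed by 3.10 (SE 0.22). Dnali1, a dynein light chain of cilia that was stable under the main scaling, stood at 20.2 to 75.1 scaled TPM in MGS and 2.66 to 12.1 in CV (2.58, SE 0.11). All of these levels were higher at day 32 than at day 5 in both cultures, as was the summed level of the ependymal markers.

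Mgll is the lipase that breaks down an endocannabinoid. It was among the 7 genes that met the stable rule in all 22 alternatives that kept the limits of that rule. It stood at 85.1 and 87.7 scaled TPM in MGS at day 5 and 48.7 and 48.8 at day 32, against 27.8 and 26.7 in CV at day 5 and 19.9 and 19.3 at day 32 (1.45, SE 0.10). Among genes lower in MGS, Fscn1, the actin bundler fascin, stood at 109 to 248 scaled TPM in MGS and 379 to 665 in CV (-1.51, SE 0.15). Prss23, a secreted serine protease, differed by -2.69 (SE 0.12).

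The class II antigen presentation gene H2-Ab1 was stable and higher in MGS, at 21.4 to 27 scaled TPM against 1.19 to 3.19 in CV (3.17, SE 0.23), while 12 of 16 genes of class I antigen presentation had opposite signs at the 2 days. Day itself was called for 1343 of the 14866 genes, 663 of them higher and 680 lower at day 32. Of the 405 stable higher genes, 98 were higher and 73 lower at day 32. Of the 203 stable lower genes, 35 were higher and 60 were lower at day 32. The additive model takes a culture by day interaction as residual spread, and the stable rule keeps that interaction small. Calls for day are thereby favoured among stable genes, so these counts do not show a closer tie to day.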
